A study of Homo sapiens with 9 samples.

Results

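Interferon-stimulated genes were followed across GLO1-depleted and control MDA-MB-231 cells, a triple-negative breast cancer line, by RNA sequencing. The set holds 46 of the 26364 genes listed in the count data, chosen by name as sensors, signalling factors and effectors of the type I interferon response. The list was drawn up with earlier results of these data known, although its rule uses no measured value. They were grouped by class: the OAS family, the MX proteins, the IFIT and IFITM families, the IFI genes, RNA sensors, STAT and IRF factors, the ISG15 system, the PARP9 and DTX3L group, GBPs, the immunoproteasome and other effectors. Of the 46, 45 had enough counts to be tested, among 13704 genes tested in all, and CMPK2 did not. The conditions were shGLO1#1 and shGLO1#2, 2 clones in which a stable shRNA silences GLO1, the enzyme that detoxifies methylglyoxal (MG), and shNT, a clone with a stable non-targeting shRNA. Each condition had 3 libraries, and every condition carries an integrated shRNA construct in the same parental line. Each condition is 1 clone, so what a clone carries besides its shRNA cannot be told apart from the silencing of GLO1, and every p-value rests on how far libraries of one clone differ, which may be technical variation.

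Type I interferons are secreted when a cell senses foreign or misplaced nucleic acid. They bind IFNAR1 and IFNAR2 on the cell surface, and the kinases JAK1 and TYK2 then activate STAT factors, of which STAT2 joins IRF9 in the complex ISGF3. This complex binds the interferon-stimulated response element (ISRE) in promoters and switches on genes whose products sense viral RNA, block translation, degrade RNA, trap viral particles or tag proteins with ISG15, while other factors act on other promoter elements such as the gamma-activated site (GAS). Many tumour lines keep a low, steady expression of these genes without added interferon.

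Promoter letters of the members are shown first, since many members hold an element that the choice of members did not use. RefSeq promoter windows (GRCh38.p14, 250 bases before to 50 after a start site) were matched by symbol for 36 of the 46 members. The ISRE was searched as GAAANNGAAA and the GAS as TTCNNNGAA, on both strands and counting overlapping copies, and a gene with several start sites counted once if any window held the letters. The ISRE letters stood in 24 of the 36 members (66.7%), in 18 of 28 matched genes of a list of other interferon-stimulated genes (64.3%) and in 1195 of all 27305 genes with a window (4.38%). The GAS letters stood in 11 members (30.6%) and in 9.38% of all genes. Such a match describes the letters and is not evidence that a factor binds there. In the windows below, the lower-case sequence runs 5′ to 3′ on the gene's strand and capitals mark the ISRE letters, read as their reverse complement where they lie on the other strand. These members are a selection made with their values known, and each of them rose in at least 1 clone in the results that follow. Not every member with the letters is shown. IFIT5, IFI27 and BST2 also held the ISRE letters and rose in neither clone.
OAS3 (chr12:112938319-112938352, + strand): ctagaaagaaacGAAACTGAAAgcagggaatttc
MX1 (chr21:41420557-41420578, + strand): gcgagcagaaatGAAACCGAAA
IFIT1 (chr10:89392495-89392541, + strand): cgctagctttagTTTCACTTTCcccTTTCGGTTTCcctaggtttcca
IFITM1 (chr11:313988-314021, + strand): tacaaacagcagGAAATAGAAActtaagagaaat
IFI44 (chr1:78649759-78649788, + strand): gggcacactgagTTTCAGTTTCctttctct
IFI44L (chr1:78620272-78620305, + strand): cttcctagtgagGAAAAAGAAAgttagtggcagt
ISG15 (chr1:1013372-1013411, + strand): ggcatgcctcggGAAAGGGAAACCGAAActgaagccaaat
DTX3L (chr3:122564320-122564341, + strand): ctccagggaagcGAAACTGAAA
PARP9 (chr3:122564320-122564353, - strand): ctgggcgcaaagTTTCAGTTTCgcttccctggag
PSMB8 (chr6:32844042-32844063, - strand): tcgatctgtggcTTTCGCTTTC
ISG20 (chr15:88638935-88638968, + strand): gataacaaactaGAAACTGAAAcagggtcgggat
RSAD2 (chr2:6877620-6877653, + strand): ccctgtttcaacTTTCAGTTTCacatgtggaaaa

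PARP9 and DTX3L lie head to head, and their windows show the same chromosome 3 element read from opposite strands. OAS1, which had the largest fold change of the set, held no match to the ISRE letters in its window and 1 match to the GAS letters. Shortly before its start OAS1 holds gaaacgaaa, a repeat with 1 base between its parts, which the searched letters do not count. OAS1 therefore lacks the letters as searched, which does not show that it lacks such an element. By the same search, IRF1 held the GAS letters alone, in the window chr5:132490877-132490909 on the - strand. Both are shown with the GAS letters in capitals, OAS1 for the 250 bases before its start (chr12:112906712-112906961, + strand).
OAS1: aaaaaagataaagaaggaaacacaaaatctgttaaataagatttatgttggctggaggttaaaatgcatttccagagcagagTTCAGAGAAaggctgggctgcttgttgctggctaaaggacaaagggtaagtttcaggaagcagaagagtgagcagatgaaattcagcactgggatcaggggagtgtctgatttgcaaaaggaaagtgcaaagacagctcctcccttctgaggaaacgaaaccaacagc
IRF1: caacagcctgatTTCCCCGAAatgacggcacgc

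In the 24 members with ISRE letters, 41 copies were found in the window described for each gene, at most 3 in a window. They began between 164 bases before and 11 bases after the start site, and 36 of the 41 ended before it. Over the 24 members with the letters, the median change against shNT was 0.67 (log2) in shGLO1#1, where 20 rose, and it was 0.70 over the 11 tested members without them, of which 10 rose. In shGLO1#2 the same medians were 0.55 (15 of 24 rose) and 0.10 (5 of 11 rose). OAS1 counted among the members without the letters. These are descriptions with no test.

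**Figure D1:**
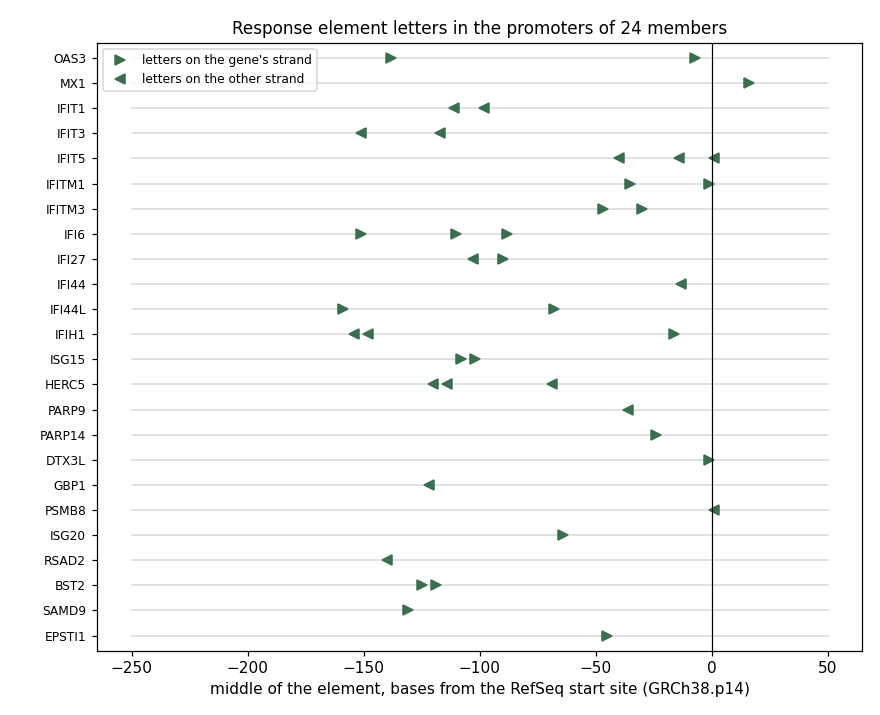
Position of each copy of the ISRE letters in the promoter windows of the 24 members that hold them. The x axis gives the middle of each copy in bases from the RefSeq start site, each row is a gene, and the triangle gives the strand. Of the copies, 36 of 41 end before the start.

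GLO1 mRNA matched the label of every library. It was 64.2, 65.9 and 65.9 CPM (the count relative to the TMM-scaled library size) in shGLO1#1 and 14.6, 15.5 and 14.02 CPM in shGLO1#2, against 323, 312 and 317 CPM in shNT. The libraries held 15314238 to 18495576 counts on genes, so 1 count equals 0.0544 to 0.0672 CPM. Of the line's markers, VIM was at 3023 CPM or more and CD44 at 325 CPM or more in every library, and ESR1 had at most 7 counts and PGR at most 4. ERBB2 transcripts were present at 65.6 to 86.3 CPM and those of the epithelial gene EPCAM at 9.56 to 15.5 CPM. Of 8 leukocyte markers, 7 had too few counts to be tested, and 4 had none in shNT. PTPRC was the exception and fell in both clones, with 0.926, 0.925 and 1.77 CPM in shGLO1#1 and 2.31, 2.18 and 3.23 CPM in shGLO1#2, against 9.34, 6.26 and 9.52 CPM in shNT. The summed level of the 8 markers was 1.31 to 2.11 CPM in shGLO1#1 and 2.35 to 3.66 CPM in shGLO1#2. It was 6.65 to 9.74 CPM in shNT, where PTPRC made up most of it. Any part of such transcripts in the change of the members was not tested.

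The first question was whether the set differed between GLO1-depleted and control cells. In shGLO1#1, 38 of the 45 tested members rose against shNT (84.4%, at an adjusted p under 0.05 by edgeR's quasi-likelihood test, Benjamini-Hochberg over all genes tested), while 22.6% of all genes tested rose. IFIT5 and IFI27 fell, against 23.1% of all genes, and 5 members did not pass. The median log2 fold change of the members was 0.74, beside 0.00 for all genes tested. With an absolute log2 fold change over 1 required as well, which is meant by "called" below, 14 members were called higher, beside 5.98% of all genes called higher and 2.75% called lower, and the lowest member was IFI27 at -0.51.

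In shGLO1#2, 28 of the 45 members rose against shNT (62.2%), beside 18.3% of all genes tested. PSMB8, PSMB9 and SAMD9 fell, beside 19.8% of all genes, and 14 members did not pass. The median was 0.53, beside 0.00 for all genes. Here 10 members were called higher, beside 5.09% of all genes called higher and 2.59% called lower, and the lowest member was PSMB9 at -0.45. With the replicate number as a block, 5 members fell, the additional ones being IFIT5 (-0.18, edgeR adjusted p = 0.0326) and DDX58 (-0.18, edgeR adjusted p = 0.0172). DHX58 rose with the block (0.43, edgeR adjusted p = 0.0306). The data support pairing for these 2 conditions. The block was fitted to all 9 libraries, so it also covered shGLO1#1, for which pairing with shNT was not shown. The comparisons of the 2 clones share the 3 shNT libraries.

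A total of 25 members (55.6%) rose in both clones, beside 9.32% of all genes, and 7 were called higher in both: OAS1, OASL, MX2, IFI44, IFI44L, ISG20 and RSAD2, beside 2.88% of all genes called higher in both. In 26 members every one of the 6 shGLO1 libraries lay above all 3 shNT libraries, as did 12% of all genes tested. No member had all 6 below, beside 12.6% of all genes. Another 13 members (28.9%) passed as higher in shGLO1#1 alone, beside 13.3% of all genes. Of these, 11 were lower in shGLO1#2 than in shGLO1#1 by the direct test, the exceptions being IFI35 and EPSTI1. The way the 13 were picked favours such a difference, and its share over all genes was not counted. ISG15, IRF9 and USP18 (6.67%) passed as higher in shGLO1#2 alone, beside 9% of all genes, and ISG15 was the one that also differed between the clones. IFIT5, IFI27, IRF7 and BST2 rose in neither clone. In these bulk libraries, more cells with a transcript and more transcript per cell cannot be told apart.

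The summed level of all 46 members was 2191 ± 62.8 CPM in shGLO1#1 and 1816 ± 107 CPM in shGLO1#2, against 1422 ± 27.6 CPM in shNT (SD, n = 3 each). The lowest shGLO1 library, shGLO1#2 replicate 2, summed to 1692 CPM and the highest shNT library to 1442 CPM, so the sums did not overlap. Relative to shNT, the sum was 1.54 times as high in shGLO1#1 and 1.28 times as high in shGLO1#2. The class sums were unequal: the OAS family stood at 3.09 and 2.18 times shNT, the MX proteins at 2.14 and 7.46 times, and the immunoproteasome at 1.27 and 0.789 times, in shGLO1#1 and shGLO1#2 in that order.

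**Figure D2:**
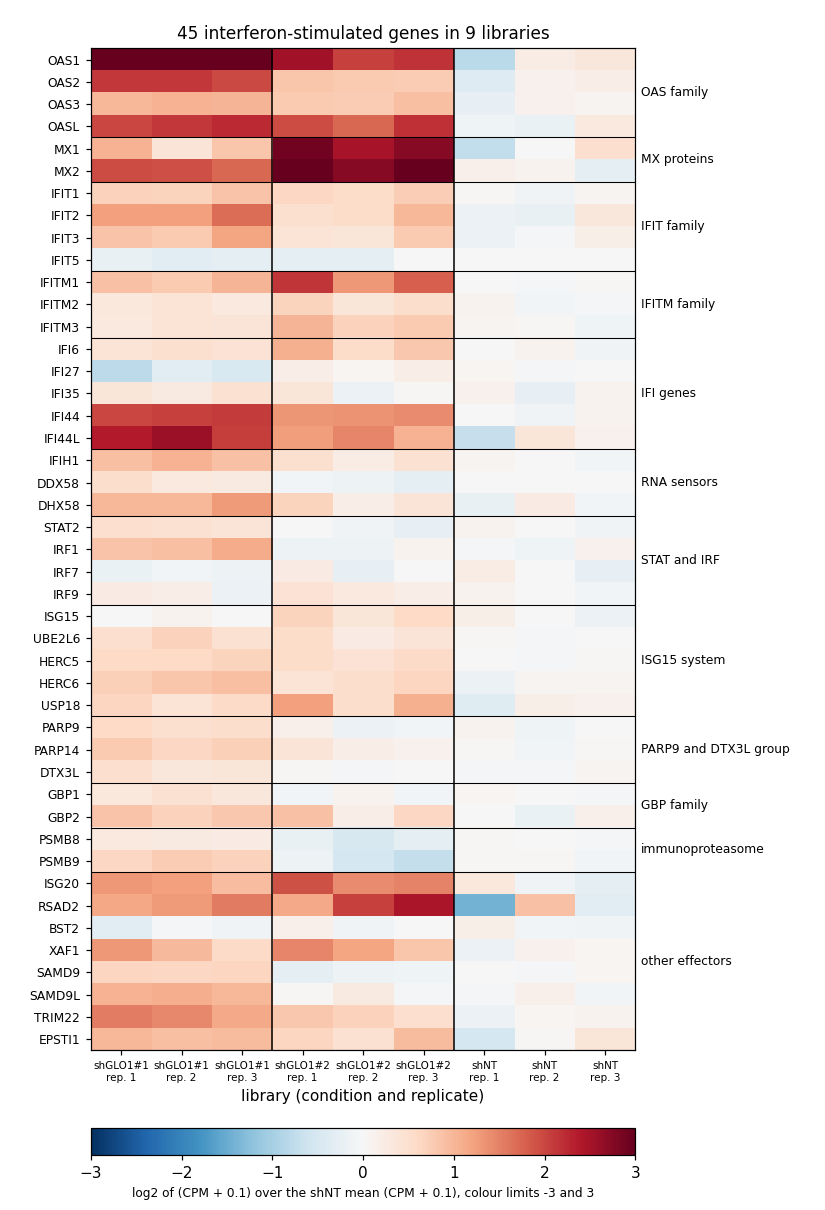
Level of the 45 tested members in each of the 9 libraries, as log2 of CPM (plus 0.1) over the shNT mean, by class. Rows are genes, columns are libraries with the shGLO1 clones left of shNT, red is above the shNT mean and blue below, and colours stop at -3 and 3. OAS genes are darkest in shGLO1#1 and MX genes in shGLO1#2, and PSMB8 and PSMB9 are red in shGLO1#1 and blue in shGLO1#2.

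The OAS family makes 2-5A, a second messenger of RNA decay, on sensing double-stranded RNA, whereas OASL has no such activity and binds RIG-I. The 4 members rose in both clones. OAS1 was 6.85, 7.89 and 6.501 CPM in shGLO1#1 and 3.59, 2.57 and 2.79 CPM in shGLO1#2, against 0.269, 0.652 and 0.720 CPM in shNT, where it had 4, 10 and 13 counts. The conditions did not overlap in OAS1, which was called higher in shGLO1#1 at a log2 fold change of 3.65 (SE 0.26, edgeR adjusted p = 1.68e-07) and in shGLO1#2 at 2.40 (SE 0.29, edgeR adjusted p = 2.20e-05). OAS2 was 60.3, 60.5 and 55.2 CPM in shGLO1#1 and 24.9, 23.8 and 23.5 CPM in shGLO1#2, against 10.5, 15.1 and 15.9 CPM in shNT. It was called higher in shGLO1#1 (2.08, SE 0.12) and rose in shGLO1#2 by 0.79 on the log2 scale (SE 0.12, edgeR adjusted p = 0.000159). OASL had overlapping levels in the clones, at 41.4, 45.2 and 49.0 CPM in shGLO1#1 and 39.9, 34.1 and 47.0 CPM in shGLO1#2, against 9.34, 8.93 and 12.5 CPM in shNT. It was called higher at 2.13 in shGLO1#1 (SE 0.14, edgeR adjusted p = 9.78e-08) and 1.96 in shGLO1#2 (SE 0.14, edgeR adjusted p = 2.98e-07). OAS3, with the most counts of the family, was 65.5, 67.2 and 66.1 CPM in shGLO1#1 and 56.2, 56.1 and 60.9 CPM in shGLO1#2, against 27.7, 35.6 and 34.9 CPM in shNT. It changed by 1.01 (log2) in shGLO1#1 (SE 0.08) and 0.81 in shGLO1#2 (SE 0.08), and the first fell short of the fold change limit without shNT replicate 1 (0.91).

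The MX proteins are dynamin-like GTPases that trap viral components, MX1 those of influenza and many other viruses and MX2 the capsids of HIV and herpesviruses. Both were higher in shGLO1#2 than in shGLO1#1. MX1 was 3.95, 2.45 and 3.36 CPM in shGLO1#1 and 14.4, 10.7 and 12.8 CPM in shGLO1#2, against 1.08, 1.83 and 2.66 CPM in shNT. The shGLO1#2 libraries stood apart, whereas shGLO1#1 replicate 2 lay below shNT replicate 3. The log2 fold change of MX1 was 2.74 in shGLO1#2 (SE 0.24, edgeR adjusted p = 1.64e-06) and 0.77 in shGLO1#1 (SE 0.28, edgeR adjusted p = 0.0370). The rise in shGLO1#1 no longer passed without shNT replicate 1 (0.51, edgeR adjusted p = 0.138), without shNT replicate 2 (edgeR adjusted p = 0.0879), without shGLO1#1 replicate 1 (edgeR adjusted p = 0.141) or without shGLO1#1 replicate 3 (edgeR adjusted p = 0.0805), and it was called higher without shNT replicate 3 (1.15). MX2 was 1.42, 1.41 and 1.20 CPM in shGLO1#1 and 4.02, 2.51 and 3.60 CPM in shGLO1#2, against 0.336, 0.326 and 0.221 CPM in shNT, where it had 5, 5 and 4 counts. No MX2 library overlapped between conditions, and the log2 fold change was 2.18 in shGLO1#1 (SE 0.36, edgeR adjusted p = 0.000236) and 3.50 in shGLO1#2 (SE 0.31, edgeR adjusted p = 1.53e-06).

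IFIT proteins bind viral RNA by its 5′ end and hold back its translation, with IFIT3 stabilising IFIT1 in a complex. IFIT1, IFIT2 and IFIT3 rose in both clones, and IFIT5 did not rise in either. IFIT2 was 155, 156 and 212 CPM in shGLO1#1 and 91.7, 97.0 and 132 CPM in shGLO1#2, against 58.1, 56.7 and 82.8 CPM in shNT. Replicate 3 was the highest library of each condition, and the shGLO1 libraries all lay above shNT. The log2 fold change of IFIT2 was 1.40 in shGLO1#1 (SE 0.17, edgeR adjusted p = 1.53e-05) and 0.69 in shGLO1#2 (SE 0.17, edgeR adjusted p = 0.00470). IFIT3 was 199, 191 and 253 CPM in shGLO1#1 and 148, 144 and 191 CPM in shGLO1#2, against 98.9, 108 and 126 CPM in shNT, again highest in replicate 3. IFIT3 changed by 0.95 (SE 0.12) and 0.53 (SE 0.12) in the same order of clones, and it was called higher in shGLO1#1 without shNT replicate 3 (1.06) or shGLO1#1 replicate 2 (1.03). IFIT1 rose by 0.74 in shGLO1#1 and 0.65 in shGLO1#2 on the log2 scale. IFIT5 averaged 55.3 ± 2.04 CPM in shGLO1#1 and 58.9 ± 7.30 CPM in shGLO1#2, against 66.6 ± 0.687 CPM in shNT (SD, n = 3 each). Its fall in shGLO1#1 (-0.27, edgeR adjusted p = 0.0117) did not pass without shGLO1#1 replicate 2 (-0.25, edgeR adjusted p = 0.0514), and in shGLO1#2 it passed without shGLO1#2 replicate 3 (-0.28, edgeR adjusted p = 0.00526).

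IFITM proteins sit in cell and endosome membranes and stop viruses from fusing with them. The 3 members rose in both clones. IFITM1 was 6.30, 5.82 and 6.90 CPM in shGLO1#1 and 15.1, 8.38 and 11.9 CPM in shGLO1#2, against 3.36, 3.26 and 3.43 CPM in shNT. The 3 conditions did not overlap, and within shGLO1#2 replicate 1 was highest. The log2 fold change of IFITM1 was 0.92 in shGLO1#1 (SE 0.21, edgeR adjusted p = 0.00284) and 1.81 in shGLO1#2 (SE 0.20, edgeR adjusted p = 1.02e-05). IFITM3 was 125, 137 and 134 CPM in shGLO1#1 and 207, 166 and 179 CPM in shGLO1#2, against 109, 106 and 93.3 CPM in shNT. It rose by 0.36 in shGLO1#1 (SE 0.08) and 0.84 in shGLO1#2 (SE 0.08) on the log2 scale, and IFITM2 rose by 0.35 and 0.52. These 3 genes are near copies of each other: 42.3% of the 50-base windows in the IFITM1 transcript, 15.8% in IFITM2 and 20.3% in IFITM3 also occur in transcripts of other genes. How reads split among them is therefore uncertain.

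The IFI genes were named for their induction by interferon and share little else; IFI6 and IFI27 are small mitochondrial or membrane proteins, and IFI44 and IFI44L are related cytoplasmic proteins. IFI44 and IFI44L were called higher in both clones, and IFI27 fell in shGLO1#1. IFI44 was 58.8, 60.3 and 62.1 CPM in shGLO1#1 and 36.2, 37.1 and 38.7 CPM in shGLO1#2, against 14.4, 13.5 and 15.4 CPM in shNT. The libraries of each condition lay close together, and the log2 fold change was 2.06 in shGLO1#1 (SE 0.07, edgeR adjusted p = 1.29e-09) and 1.36 in shGLO1#2 (SE 0.08, edgeR adjusted p = 3.22e-08). Its neighbour IFI44L was 6.36, 7.34 and 5.13 CPM in shGLO1#1 and 2.86, 3.35 and 2.48 CPM in shGLO1#2, against 0.672, 1.4998 and 1.27 CPM in shNT. The order of the conditions was that of IFI44, with log2 fold changes of 2.43 in shGLO1#1 (SE 0.25, edgeR adjusted p = 3.75e-06) and 1.32 in shGLO1#2 (SE 0.27, edgeR adjusted p = 0.00159). IFI27 averaged 26.2 ± 4.10 CPM in shGLO1#1 and 41.5 ± 2.42 CPM in shGLO1#2, against 37.3 ± 1.41 CPM in shNT (SD, n = 3 each), with log2 fold changes of -0.51 (edgeR adjusted p = 0.00103) and 0.16 (edgeR adjusted p = 0.237). IFI6 rose by 0.45 in shGLO1#1 and 0.83 in shGLO1#2 on the log2 scale, the first not passing without shNT replicate 1 (edgeR adjusted p = 0.0529), shNT replicate 3 (0.0715) or shGLO1#1 replicate 2 (0.0627). IFI35, a partner of NMI, rose in shGLO1#1 (0.37, edgeR adjusted p = 0.0362), which did not hold without shNT replicate 2 (0.26, edgeR adjusted p = 0.155), shGLO1#1 replicate 1 (edgeR adjusted p = 0.0818) or shGLO1#1 replicate 3 (edgeR adjusted p = 0.109).

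**Figure D3:**
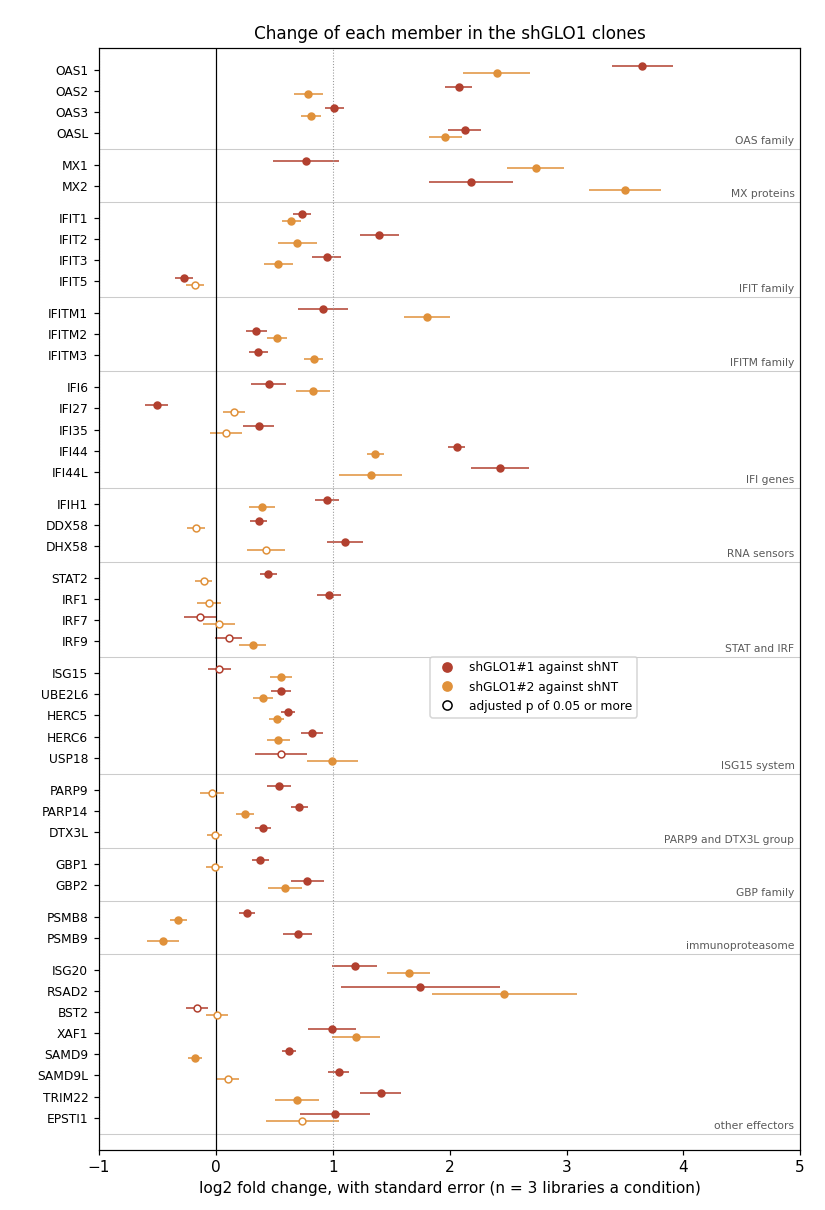
Log2 fold change against shNT of each tested member, by class, in shGLO1#1 and shGLO1#2, with its standard error. Filled points have an adjusted p under 0.05, open points do not, and the dotted line marks the fold change limit at 1. The shGLO1#1 points lie to the right of those of shGLO1#2 in most rows, with MX1, MX2, IFITM1, IFITM3, ISG15 and ISG20 among the exceptions.

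Of the RNA sensors, DDX58 encodes RIG-I and IFIH1 encodes MDA5, which detect double-stranded RNA in the cytoplasm and signal through MAVS, and DHX58 encodes LGP2, which tunes both. The 3 genes rose in shGLO1#1, and IFIH1 also in shGLO1#2. DHX58 was 12.7, 12.7 and 15.4 CPM in shGLO1#1 and 10.05, 7.26 and 8.32 CPM in shGLO1#2, against 5.44, 7.56 and 5.98 CPM in shNT. The shGLO1#1 libraries stood above the rest and those of shGLO1#2 overlapped shNT, with log2 fold changes of 1.11 (SE 0.16, edgeR adjusted p = 6.58e-05) and 0.43 (SE 0.16, edgeR adjusted p = 0.0502). DDX58 was the sensor with the most counts, at 130, 111 and 110 CPM in shGLO1#1 and 85.8, 82.4 and 73.8 CPM in shGLO1#2, against 91.1, 90.6 and 90.8 CPM in shNT. It lay above shNT in each shGLO1#1 library and below it in each shGLO1#2 library, with log2 fold changes of 0.37 (SE 0.07, edgeR adjusted p = 0.00114) and -0.17 (SE 0.07, edgeR adjusted p = 0.0869). In shGLO1#2, DDX58 passed without shGLO1#1 replicate 1 (edgeR adjusted p = 0.0483), and DHX58 without shNT replicate 2 (0.57, edgeR adjusted p = 0.0219) or shGLO1#2 replicate 2 (0.55, edgeR adjusted p = 0.0250). DHX58 also passed there with RLE factors (edgeR adjusted p = 0.0456), upper-quartile factors (0.0305), no filter (0.0313), a mean of at least 1 CPM (0.0490), the replicate block (0.0306) and DESeq2 (adjusted p = 0.0449). IFIH1 rose by 0.95 in shGLO1#1 and 0.39 in shGLO1#2 on the log2 scale.

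STAT2 and IRF9 are parts of ISGF3, IRF7 drives interferon genes, and IRF1 is a transcription factor of its own that controls, among others, the immunoproteasome. STAT2 and IRF1 rose in shGLO1#1 and not in shGLO1#2, and IRF9 rose in shGLO1#2. IRF1 was 47.3, 49.1 and 56.9 CPM in shGLO1#1 and 23.5, 23.4 and 28.3 CPM in shGLO1#2, against 25.7, 23.996 and 28.6 CPM in shNT. The shGLO1#2 and shNT libraries overlapped, with log2 fold changes of 0.97 in shGLO1#1 (SE 0.10, edgeR adjusted p = 4.46e-06) and -0.06 in shGLO1#2 (SE 0.10, edgeR adjusted p = 0.682). It was called higher in shGLO1#1 without shNT replicate 3 (1.05) or shGLO1#1 replicate 1 (1.02). STAT2 was 147, 143 and 135 CPM in shGLO1#1 and 105, 97.3 and 87.4 CPM in shGLO1#2, against 111, 104 and 96.2 CPM in shNT. It followed the pattern of IRF1 at a smaller size, with log2 fold changes of 0.45 (SE 0.07, edgeR adjusted p = 0.000216) and -0.10 (SE 0.07, edgeR adjusted p = 0.298). IRF9 averaged 18.0 ± 2.74 CPM in shGLO1#1 and 20.8 ± 1.75 CPM in shGLO1#2, against 16.7 ± 1.06 CPM in shNT (SD, n = 3 each). Its rise in shGLO1#2 (0.32, edgeR adjusted p = 0.0438) did not pass when shNT replicate 2 (edgeR adjusted p = 0.0974), shNT replicate 3 (0.119), shGLO1#1 replicate 2 (0.0560), shGLO1#2 replicate 1 (0.124) or shGLO1#2 replicate 2 (0.0749) was left out. In the reference transcripts, 100% of the 50-base windows of IRF9 also occur in the gene AL136295.5. The part of shared reads in the values of IRF9 was not tested. IRF7 had log2 fold changes of -0.13 and 0.02, neither past the test. IRF1 shares 580 exon bases with the opposite-strand gene C5orf56 in GENCODE 29, and the TruSeq RNA kit named in the labels does not mark the strand, so reads there cannot be assigned by strand. C5orf56 itself had 29, 42 and 40 counts in shGLO1#1 and 13, 9 and 13 counts in shGLO1#2, against 10, 15 and 12 counts in shNT.

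The ISG15 system tags proteins with ISG15, a ubiquitin-like modifier; UBE2L6 is the conjugating enzyme, HERC5 the main human ligase, HERC6 its relative, and USP18 removes the tag and also restrains the interferon receptor. All 5 members rose in shGLO1#2, while UBE2L6, HERC5 and HERC6 did so in shGLO1#1. HERC5, with the most counts of the class, was 66.2, 65.2 and 68.7 CPM in shGLO1#1 and 63.6, 58.3 and 64.8 CPM in shGLO1#2, against 43.0, 42.6 and 44.5 CPM in shNT. The shGLO1 libraries all lay above shNT, with log2 fold changes of 0.62 (SE 0.06, edgeR adjusted p = 3.13e-06) and 0.52 (SE 0.06, edgeR adjusted p = 1.97e-05). ISG15 averaged 37.5 ± 1.65 CPM in shGLO1#1 and 54.1 ± 6.01 CPM in shGLO1#2, against 36.8 ± 4.36 CPM in shNT (SD, n = 3 each), with log2 fold changes of 0.03 (edgeR adjusted p = 0.822) and 0.56 (edgeR adjusted p = 0.000451). USP18 had 0.56 in shGLO1#1 (edgeR adjusted p = 0.0590) and 1.00 in shGLO1#2 (edgeR adjusted p = 0.00259, with a value just under the fold change limit). It passed in shGLO1#1 without shGLO1#2 replicate 1 (edgeR adjusted p = 0.0441) or 2 (0.0312), and was called in shGLO1#2 without shNT replicate 2 (1.08) or 3 (1.08) or shGLO1#2 replicate 2 (1.19). USP18 also passed in shGLO1#1 with upper-quartile factors (edgeR adjusted p = 0.0498), no filter (0.0479), the replicate block (0.0354) or these 2 conditions alone (0.0333), and was called in shGLO1#2 with RLE factors (1.003), upper-quartile factors (1.05), a mean of at least 1 CPM (1.001), these 2 conditions alone (1.001) or DESeq2 (1.01). In the reference transcripts, 23.4% of the 50-base windows of USP18 also occur in related genes, so its counts are uncertain. UBE2L6 rose by 0.56 and 0.40 and HERC6 by 0.82 and 0.53 on the log2 scale, in shGLO1#1 and shGLO1#2.

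PARP9 and DTX3L form a heterodimer that ubiquitinates and ADP-ribosylates proteins in the interferon response, and PARP14 is a mono-ADP-ribosyltransferase encoded beside them. The 3 genes rose in shGLO1#1, and PARP14 also in shGLO1#2. PARP14 was 85.9, 77.3 and 82.7 CPM in shGLO1#1 and 65.8, 57.1 and 55.0 CPM in shGLO1#2, against 51.6, 47.2 and 51.0 CPM in shNT. The conditions did not overlap, with log2 fold changes of 0.71 (SE 0.08, edgeR adjusted p = 5.24e-06) and 0.25 (SE 0.08, edgeR adjusted p = 0.0198). The second did not pass without shNT replicate 2 (0.21, edgeR adjusted p = 0.0817) or shGLO1#2 replicate 1 (0.17, edgeR adjusted p = 0.0746). PARP9 had log2 fold changes of 0.54 in shGLO1#1 and -0.04 in shGLO1#2, and DTX3L had 0.40 and -0.01. The last 2 genes overlap by 217 exon bases on opposite strands.

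GBPs are large GTPases that coat vacuoles and bacteria inside cells. GBP1 was 48.8, 54.3 and 50.1 CPM in shGLO1#1 and 37.2, 42.4 and 37.2 CPM in shGLO1#2, against 41.3, 39.1 and 37.5 CPM in shNT. The shGLO1#2 libraries overlapped shNT, and the log2 fold change was 0.38 in shGLO1#1 (SE 0.08, edgeR adjusted p = 0.00100) and -0.01 in shGLO1#2 (edgeR adjusted p = 0.924). GBP2 rose in both clones, by 0.78 and 0.59 on the log2 scale. Of the 50-base windows in GBP1, 13.3% occur in other GBP genes.

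The immunoproteasome subunits PSMB8 and PSMB9 replace constitutive catalytic subunits and change the peptides that cells present on MHC class I. The pair rose in shGLO1#1 and fell in shGLO1#2. PSMB9 was 16.1, 17.8 and 16.9 CPM in shGLO1#1 and 9.32, 7.26 and 6.33 CPM in shGLO1#2, against 10.8, 10.7 and 9.91 CPM in shNT. The 3 conditions did not overlap, and the log2 fold change was 0.70 in shGLO1#1 (SE 0.13, edgeR adjusted p = 0.000487) and -0.45 in shGLO1#2 (SE 0.14, edgeR adjusted p = 0.0173). The fall did not pass without shGLO1#2 replicate 2 (-0.40, edgeR adjusted p = 0.0634) or shGLO1#2 replicate 3 (-0.33, edgeR adjusted p = 0.0792). PSMB8 was 70.0, 68.4 and 68.0 CPM in shGLO1#1 and 48.9, 40.6 and 47.8 CPM in shGLO1#2, against 59.0, 57.4 and 55.2 CPM in shNT, with log2 fold changes of 0.27 (SE 0.07, edgeR adjusted p = 0.00702) and -0.32 (SE 0.07, edgeR adjusted p = 0.00286). PSMB8-AS1, a non-coding gene that shares 134 exon bases with PSMB8 on the opposite strand and 139 with PSMB9 on the same strand, had 74, 120 and 90 counts in shGLO1#1 and 37, 29 and 27 counts in shGLO1#2, against 39, 44 and 36 counts in shNT. The part of shared reads in the values of PSMB8 and PSMB9 was not tested.

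The remaining effectors have separate activities. ISG20, an exonuclease that degrades viral RNA, was 10.1, 9.52 and 7.76 CPM in shGLO1#1 and 15.3, 10.9 and 11.4 CPM in shGLO1#2, against 5.04, 3.72 and 3.32 CPM in shNT, with log2 fold changes of 1.19 (SE 0.19, edgeR adjusted p = 0.000187) and 1.65 (SE 0.18, edgeR adjusted p = 1.15e-05). RSAD2, which encodes viperin, a radical SAM enzyme, was the lowest tested member and had 8, 10 and 12 counts in shGLO1#1 and 8, 18 and 22 counts in shGLO1#2, against 0, 6 and 2 counts in shNT. Its levels were 0.494, 0.544 and 0.684 CPM in shGLO1#1 and 0.487, 1.01 and 1.37 CPM in shGLO1#2, against 0, 0.391 and 0.111 CPM in shNT. At this depth RSAD2 was called higher in shGLO1#2 (2.47, SE 0.62, edgeR adjusted p = 0.00605) and at the edge of the threshold in shGLO1#1 (1.75, SE 0.68, edgeR adjusted p = 0.0493). The call in shGLO1#1 was lost in DESeq2 (adjusted p = 0.0515) and when shNT replicate 1 (edgeR adjusted p = 0.138), shNT replicate 3 (0.143), any of the 3 shGLO1#1 replicates (0.0767, 0.0883 and 0.118) or shGLO1#2 replicate 2 (0.0608) was left out. CMPK2, the gene next to RSAD2, had 1, 0 and 5 counts in shGLO1#1 and 0, 1 and 5 counts in shGLO1#2, against 0, 1 and 1 counts in shNT, and was not tested.

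XAF1, a pro-apoptotic antagonist of XIAP, was 11.5, 9.19 and 6.96 CPM in shGLO1#1 and 12.8, 10.7 and 8.32 CPM in shGLO1#2, against 4.03, 5.02 and 4.76 CPM in shNT. It rose in both clones, with log2 fold changes of 1.00 (SE 0.20, edgeR adjusted p = 0.00131, with a value just under the fold change limit) and 1.20 (SE 0.20, edgeR adjusted p = 0.000364). XAF1 was called higher in shGLO1#1 without shNT replicate 2 (1.06), shNT replicate 3 (1.03), shGLO1#1 replicate 3 (1.16) or any of the 3 shGLO1#2 libraries, and with upper-quartile factors (1.03), a mean of at least 1 CPM (1.005) or these 2 conditions alone (1.004). TRIM22, an antiviral E3 ligase, was 6.91, 6.42 and 5.19 CPM in shGLO1#1 and 4.14, 3.80 and 3.29 CPM in shGLO1#2, against 2.02, 2.41 and 2.49 CPM in shNT, with log2 fold changes of 1.41 (SE 0.18, edgeR adjusted p = 2.45e-05) and 0.69 (SE 0.19, edgeR adjusted p = 0.00983). SAMD9L, which with its neighbour SAMD9 restrains translation and poxvirus growth, was 46.2, 47.7 and 45.2 CPM in shGLO1#1 and 23.0, 27.2 and 21.8 CPM in shGLO1#2, against 21.4, 24.8 and 21.0 CPM in shNT. It was called higher in shGLO1#1 (1.05, SE 0.09, edgeR adjusted p = 1.22e-06), while the shGLO1#2 libraries overlapped shNT (0.10, edgeR adjusted p = 0.434). SAMD9 rose in shGLO1#1 (0.63, edgeR adjusted p = 1.81e-06) and fell in shGLO1#2 (-0.18, edgeR adjusted p = 0.0277), and the fall did not pass without shNT replicate 1 (edgeR adjusted p = 0.0596), shNT replicate 3 (0.111) or shGLO1#2 replicate 1 (0.1199), with upper-quartile factors (0.0915), with no filter on low counts (0.0509) or in a fit of these 2 conditions alone (0.0728).

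EPSTI1, first described in the stroma of breast tumours, was 1.36, 1.25 and 1.31 CPM in shGLO1#1 and 1.04, 0.893 and 1.30 CPM in shGLO1#2, against 0.403, 0.652 and 0.830 CPM in shNT. The shGLO1 libraries all lay above shNT, with log2 fold changes of 1.02 in shGLO1#1 (SE 0.30, edgeR adjusted p = 0.0127) and 0.74 in shGLO1#2 (SE 0.31, edgeR adjusted p = 0.0772). The rise in shGLO1#1 did not pass without shNT replicate 1 (0.80, edgeR adjusted p = 0.0547), the call was lost without shGLO1#1 replicate 1 (0.99), and EPSTI1 was called higher in shGLO1#2 without shNT replicate 3 (1.02, edgeR adjusted p = 0.0458). BST2, the tetherin that holds budding virus at the cell surface, was 81.3, 99.9 and 95.9 CPM in shGLO1#1 and 114, 95.6 and 103 CPM in shGLO1#2, against 116, 98.5 and 95.9 CPM in shNT. Its conditions overlapped throughout, with log2 fold changes of -0.16 (SE 0.09, edgeR adjusted p = 0.169) and 0.01 (SE 0.09, edgeR adjusted p = 0.937).

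**Figure D4:**
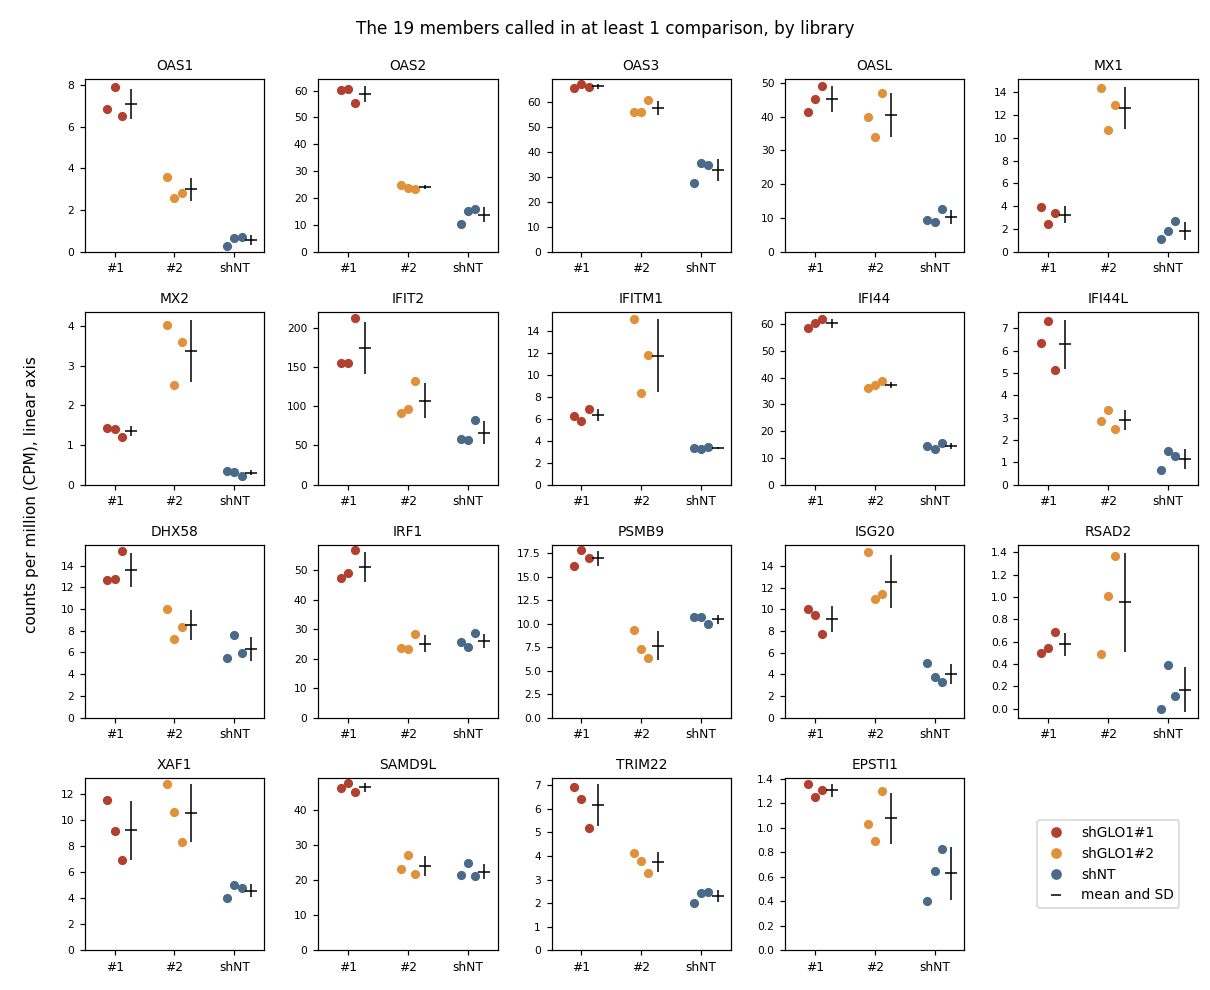
CPM of the 19 members called in at least 1 of the 3 comparisons, on linear axes that include 0. Each point is a library, with shGLO1#1 and shGLO1#2 left of shNT, and the black lines give the mean and SD of 3 libraries. OAS1, OAS2, IFI44L and TRIM22 are highest in shGLO1#1 and higher in shGLO1#2 than in shNT, whereas MX1, MX2, IFITM1 and ISG20 are highest in shGLO1#2 and IRF1, PSMB9 and SAMD9L in shGLO1#1.

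Levels of different genes were compared per kilobase of exon (GENCODE 29, merged exons, which can be longer than the transcript these cells make). IFITM3 and BST2 were the highest on this scale in every condition: IFITM3 at 109 CPM per kb in shGLO1#1 and 152 in shGLO1#2, against 84.8 in shNT, and BST2 at 90.6 and 102, against 102. RSAD2 and CMPK2 were the lowest in every condition. The order of the others moved with the clone. IFI44 ranked 8th of 46 in shGLO1#1 and 11th in shGLO1#2, against 21st in shNT, and OASL ranked 20th and 19th, against 31st.

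The second question was whether the clones differed from each other. Of the 45 members, 8 rose in shGLO1#2 against shGLO1#1, beside 22.8% of all genes tested, and 21 fell, beside 23.7% of all genes. The members that fell were 46.7% of those tested, and the median log2 fold change was -0.28, beside -0.01 for all genes. Without shGLO1#2 replicate 2 the median of the members was -0.15. MX1 and MX2 were called higher in shGLO1#2 (3.33% of all genes were) and OAS1, OAS2, IFI44L, IRF1 and PSMB9 were called lower (3.75% of all genes were). GLO1 mRNA itself was lower in shGLO1#2 than in shGLO1#1 by a log2 fold change of -2.15.

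MX1 was 3.90-fold higher in shGLO1#2 than in shGLO1#1 (log2 fold change 1.96, SE 0.22, edgeR adjusted p = 9.88e-06) and MX2 2.496-fold higher (1.32, SE 0.23, edgeR adjusted p = 0.000353). In the other direction, OAS2 was 2.44-fold lower in shGLO1#2 (-1.29, SE 0.11, edgeR adjusted p = 7.54e-07) and OAS1 2.38-fold lower (-1.25, SE 0.19, edgeR adjusted p = 0.000141). PSMB9 (-1.15, SE 0.13), IFI44L (-1.11, SE 0.21) and IRF1 (-1.03, SE 0.10) followed, at edgeR adjusted p = 9.45e-06, 0.000736 and 2.60e-06. The call of IFI44L was lost without shGLO1#1 replicate 2 (-0.98), and that of IRF1 without shGLO1#1 replicate 3 (-0.94), shGLO1#2 replicate 1 (-0.98) or shGLO1#2 replicate 2 (-0.98), though each still passed the adjusted p. In contrast, OASL (-0.17, SE 0.12, edgeR adjusted p = 0.288), OAS3 (-0.20, SE 0.08, edgeR adjusted p = 0.0561) and IFIT1 (-0.09, SE 0.08, edgeR adjusted p = 0.338) did not pass between the clones, which does not show that their levels were equal. OAS3 passed without shNT replicate 1 (edgeR adjusted p = 0.0144) or shGLO1#2 replicate 3 (0.0494). Leaving out shGLO1#2 replicate 1 made IFI35 (-0.44), UBE2L6 (-0.24) and GBP2 (-0.36) pass. Leaving out shGLO1#2 replicate 2 made IFITM2 (0.25) and USP18 (0.63) pass and brought IFITM1 (1.09) and SAMD9L (-1.04) past the fold change limit.

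Besides the MX genes, IFITM1 (0.89), IFI27 (0.66), ISG15 (0.53), IFITM3 (0.48), ISG20 (0.46) and IFI6 (0.38) rose in shGLO1#2 against shGLO1#1. ISG20 did not pass without shGLO1#1 replicate 2 (edgeR adjusted p = 0.0650), shGLO1#1 replicate 3 (0.129) or shGLO1#2 replicate 1 (0.150). IFI6 did not pass when any 1 library of either clone was left out, apart from shGLO1#2 replicate 2 (edgeR adjusted p between 0.0685 and 0.157). The 3 RNA sensors, the 3 genes of the PARP9 and DTX3L group and both immunoproteasome subunits were lower in shGLO1#2. So were STAT2 (-0.55), SAMD9 (-0.81), SAMD9L (-0.95), TRIM22 (-0.72), IFIT2 (-0.70), IFI44 (-0.69), IFIT3 (-0.41), GBP1 (-0.39) and HERC6 (-0.29). Of these, IFIT3 did not pass without shGLO1#1 replicate 3 (edgeR adjusted p = 0.0717) or shGLO1#2 replicate 2 (0.0639), and HERC6 did not without shGLO1#1 replicate 2 (0.0617), shGLO1#1 replicate 3 (0.0828), shGLO1#2 replicate 1 (0.0714) or shGLO1#2 replicate 2 (0.0549). Among the 25 members that rose in both clones, 10 were lower and 6 were higher in shGLO1#2 than in shGLO1#1, and 9 did not pass between them. The same split over all genes was not counted.

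**Figure D5:**
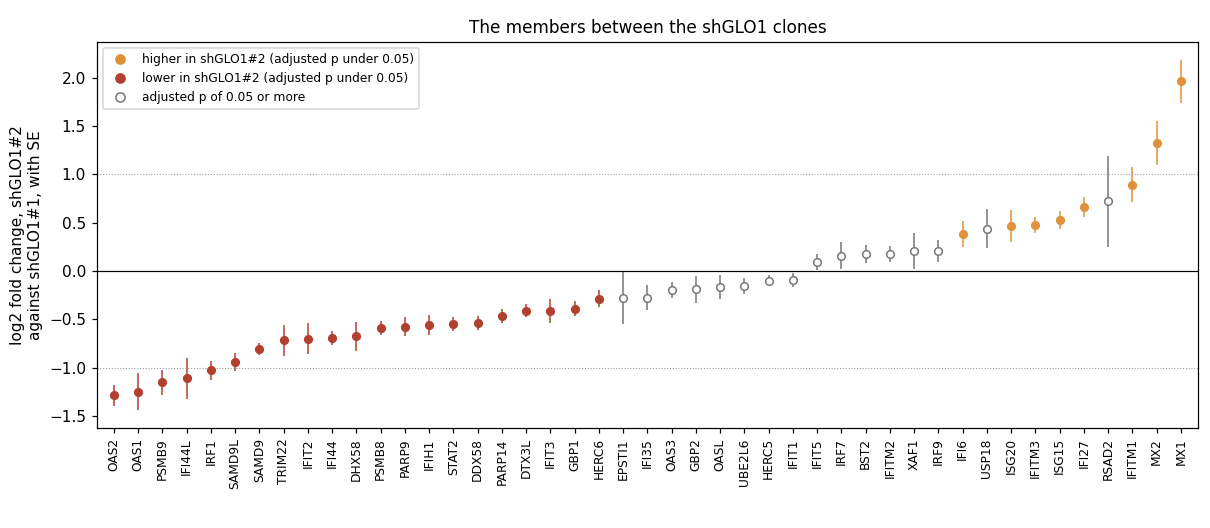
Log2 fold change of each tested member in shGLO1#2 against shGLO1#1, with its standard error, ordered by value. Filled points have an adjusted p under 0.05 and dotted lines mark the fold change limit. The 21 members that were lower in shGLO1#2 run from OAS2 at -1.29 to HERC6 at -0.29, and MX1 lies farthest up at 1.96.

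The rest of the pathway was described with lists of named genes, by counts and medians. Of all genes tested, 22.6% rose and 23.1% fell in shGLO1#1, 18.3% rose and 19.8% fell in shGLO1#2, and both medians were 0.00. Of 21 interferon genes, 20 had no count in any library, IFNB1 and IFNG included. IFNL1 had 1 count in shGLO1#1 replicate 3 and 1 in shGLO1#2 replicate 1, and none in shNT. A count of 0 allows up to 3 counts, or 0.163 to 0.202 CPM by library. Apart from the single counts of IFNL1, no interferon transcript was counted at this depth among uniquely aligned reads. Non-unique reads were left out, so reads shared by related interferon genes would be missed. Of 10 receptor and JAK-STAT genes, 4 (40%) rose in shGLO1#1 (median 0.07, lowest -0.16), and 2 (20%) rose and 3 (30%) fell in shGLO1#2 (median 0.00), so the share that rose in shGLO1#2 was near that of all genes.

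Of 14 sensing and adaptor genes upstream of interferon, 13 were tested, and 5 (38.5%) rose and 3 (23.1%) fell in shGLO1#1 (median 0.17), whereas 4 (30.8%) rose and 2 (15.4%) fell in shGLO1#2 (median 0.05). The shares that fell were near those of all genes. TMEM173 and MB21D1, which encode STING and the DNA sensor cGAS of the same route and are named after their values were seen, moved in opposite directions. TMEM173 rose in both clones (0.69 and 0.59), and MB21D1 fell in both (-0.48 and -0.37). Of 9 genes that restrain the signal, 8 were tested, with 2 higher and 2 lower in shGLO1#1 (25% each, near the shares of all genes, median 0.01) and 4 (50%) lower in shGLO1#2 (median -0.25). CISH, a SOCS family inhibitor, was called lower in shGLO1#2 and had 0.670, 0.782 and 0.683 CPM there and 1.67, 1.58 and 2.28 CPM in shGLO1#1, against 2.22, 2.28 and 1.11 CPM in shNT. In shGLO1#2 CISH changed by -1.36 (log2) (SE 0.33, edgeR adjusted p = 0.00477).

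A separate list of 40 other interferon-stimulated genes, which overlaps the members in no gene, was counted in the same way. Of 36 tested, 20 rose and 2 fell in shGLO1#1 (55.6% rose, median 0.30), and 7 rose and 2 fell in shGLO1#2 (19.4% rose, median 0.07). In shGLO1#2 the share that rose was close to the 18.3% of all genes. RTP4, a chaperone of receptors, was 3.33, 2.77 and 3.14 CPM in shGLO1#1 and 0.609, 1.12 and 0.621 CPM in shGLO1#2, against 0.403, 0.261 and 0.277 CPM in shNT, with log2 fold changes of 3.28 (SE 0.31, edgeR adjusted p = 1.98e-06) and 1.33 (SE 0.39, edgeR adjusted p = 0.0158). GBP4 had log2 fold changes of 2.88 in shGLO1#1 and 1.26 in shGLO1#2, both called. TRANK1 was called higher in shGLO1#1 (1.07) and did not pass in shGLO1#2 (0.22, edgeR adjusted p = 0.222). A list of 6 proteasome genes held the constitutive subunits PSMB5, PSMB6 and PSMB7, the immunoproteasome subunit PSMB10 and the activator subunits PSME1 and PSME2. In it 1 (16.7%) rose and 3 (50%) fell in shGLO1#1 (median -0.13), and 1 (16.7%) rose and 4 (66.7%) fell in shGLO1#2 (median -0.14). The kinds of subunit moved unequally, and these genes are named after their values were seen. PSMB5 (-0.30), PSMB6 (-0.41) and PSMB7 (-0.36) fell in shGLO1#1, where PSME1 rose (0.16). In shGLO1#2, PSMB6 (-0.22), PSMB7 (-0.14), PSME1 (-0.13) and PSME2 (-0.19) fell, and PSMB10 rose (0.33).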

How the data were processed

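RNA from 9 libraries of MDA-MB-231 cells was sequenced by the authors, 3 libraries each of shGLO1#1, shGLO1#2 and shNT. Per the labels and the submitters' processing notes, they used a TruSeq RNA kit, bcl2fastq 2.17, TopHat2 2.1.1, the hg19 build and HTSeq. The deposited values are raw counts per gene symbol. The annotation and strand setting of HTSeq, and the meaning of the replicate numbers, are not given in the sources that were used here. HTSeq's rows for reads on no gene (12.8 to 15.2% of counted alignments), ambiguous reads (1.50 to 1.95%) and non-unique reads (5.76 to 6.15%) were left out. No 2 libraries of a condition were identical or agreed within sampling noise (chi-square per degree of freedom 3.11 to 8.63).

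The test was edgeR 4.0.16 in R 4.3.3. Low genes were removed with filterByExpr (at least 10 counts, and 15 in total), and libraries were scaled by TMM (factors 0.972 to 1.04) and fitted with a quasi-likelihood model of all 9 libraries with condition as the sole term. P-values were adjusted by Benjamini and Hochberg over all 13704 genes tested, and 0.05 was the threshold. The SE is the absolute log2 fold change over the square root of F. The procedure was tested on simulated data. Floors cover counting error only. The members and lists were chosen with earlier results of these data known. Every member was to be accounted for, with values per library for members called in any comparison and for the member of each class with the highest mean CPM. Up to 4 called genes of each list were named, and other list genes were chosen after their values were seen. Some list genes are not reported here. Alternatives were DESeq2 1.42.0, RLE or upper-quartile factors, no filter or a mean of at least 1 CPM, 2 conditions alone, the replicate block, and each library left out. Deviations of same-numbered libraries from their condition means correlated at 0.21, 0.19 and 0.31 for shGLO1#2 and shNT, all over 0.1, so the data pair these libraries. Promoter windows are from RefSeq (GRCh38.p14) and exon lengths from GENCODE 29. Their coordinates were not mixed with hg19.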

Additional observations from a re-analysis of the deposited data

Results flagged for a closer look

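The levels of 7 members differed between the clones past the adjusted p and the fold change limit, by the test of the difference itself (edgeR, shGLO1#2 against shGLO1#1). Of the 45 tested members, 2 were called higher and 5 lower, beside 3.33% and 3.75% of all genes tested. The log2 fold change was 1.96 for MX1 and 1.32 for MX2. It was -1.29 for OAS2, -1.25 for OAS1, -1.15 for PSMB9, -1.11 for IFI44L and -1.03 for IRF1. As each clone is a single line, the shRNA and the clone cannot be told apart. Conditions of 3 libraries were not tested for single outlying values.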

How the results depend on the processing

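No fold change of a member changed sign past the test under the alternatives run. Leaving out 1 library gave 34 to 39 members higher and 1 to 2 lower in shGLO1#1 against shNT, the 1 coming without shGLO1#1 replicate 2, and 11 to 17 called higher. For shGLO1#2 against shNT it gave 26 to 28 higher, 2 to 4 lower and 10 to 12 called higher. Between the clones it gave 6 to 10 higher and 19 to 23 lower in shGLO1#2. The other alternatives gave 37 to 39 higher in shGLO1#1 and 27 to 29 in shGLO1#2. Among single-gene values, 4 lost and 16 gained the threshold under these alternatives, and 44 lost and 14 gained it when a library was left out. The median of all genes was at most 0.052 (log2) under any scaling, with upper-quartile factors in shGLO1#2 against shNT.

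The replicate block gave 5 members lower in shGLO1#2 against shNT, where the fit without it gave 3, and changed no other call there besides the rise of DHX58. For shGLO1#1 and shNT the correlations of same-numbered libraries were -0.03, 0.06 and 0.25, and between the clones 0.20, 0.07 and 0.34. Differently numbered libraries of the clones correlated at -0.26 to 0.075. Neither comparison had all same-numbered correlations over 0.1, the limit used, so pairing was not shown for these, and it is not excluded. There the block gave passes to USP18 in shGLO1#1 and to OAS3, IFI35 and IRF9 between the clones. RSAD2, MX2 and EPSTI1, at low counts, had the widest standard errors of the log2 fold change in every comparison. OAS1, MX1 and IFI44L, also at low counts in shNT, had wide errors too, and CMPK2 could not be tested.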
